A study of Danio rerio with 12 samples.

Results

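The liver of unedited adult zebrafish is described here from 6 RNA-seq libraries of whole liver, titled glo2+/+ replicates 1 to 6 and labelled as wild type (WT) and not trained. They were taken by title and genotype label from the 12 libraries of a series on loss of glyoxalase 2 in zebrafish; the other 6, of glo2-/- fish, were not used for any value below. All fish carried the transgene Tg(fli1:EGFP), in which the fli1 promoter drives a green fluorescent protein mainly in endothelial cells, so the wild type fish were transgenic too. The labels give no age in days, no sex, no feeding state, and they do not say whether 1 fish gave 1 library. Part of the spread between libraries may thus be technical. With 1 group and no contrast, the values are descriptions and carry no test.

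The liver makes most of the proteins of blood plasma, handles the nutrients that arrive from the gut, and makes bile. Most of its mass is hepatocytes, which secrete lipoprotein particles, carriers, clotting factors and complement, and which switch between storing and releasing glucose and lipid with feeding and fasting. Bile duct cells, endothelium, stellate cells, macrophages and blood make up the rest. In zebrafish the exocrine pancreas is scattered along the gut beside the liver and can border it closely.

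The libraries held 17837733 to 18465485 estimated counts over 32520 genes, a range so narrow that depth differed little between them. Each library had 20006 to 21257 genes with a value above 0 and 10438 to 11929 genes at 1 TPM or more (a level scaled for transcript length and library size, so that genes can be compared within a library). Of all genes, 9152 reached 1 TPM in all 6 libraries (28.1%), 4608 in 1 to 5 libraries and 18760 in none. Spearman's correlation between pairs of libraries was 0.845 to 0.922 with a median of 0.871, as a description over genes that are not independent. It was taken on log2 CPM (counts scaled to library size with TMM factors), over the 5476 genes at a mean of at least 10 CPM. No pair of libraries matched to within sampling noise (chi-square per degree of freedom 45.6 to 113 over the 15 pairs).

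Hepatocyte genes stood high in the ranking by mean TPM. Of 15 hepatocyte markers, 13 were among the 100 genes of highest mean TPM, out of 32520 genes. The markers were chosen with earlier results of these data known and include the genes at ranks 1, 2, 3 and 6, so the count is a description. The nuclear receptor HNF4A, a regulator of hepatocyte genes, stood at rank 738 with 45.8 to 115 TPM. The cytochrome P450 gene cyp2p10 was the exception, at rank 6755 with 2.77 to 4.98 TPM.

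The transcriptome was concentrated in few genes. The single most abundant gene took 12.9% of all TPM at the median library (11.7% to 15.97%), the 10 genes of highest mean TPM 40.4% (37.3% to 44.7%), the first 100 67.0% (66.0% to 71.4%) and the first 1000 90.2% (89.5% to 92.6%). Between 18 and 31 genes were enough to make up 50% of the TPM of a library. In terms of levels, 11 genes had a mean of at least 10000 TPM and together held 41.8% ± 2.85 of TPM (SD, n = 6), and 134 genes between 1000 and 10000 TPM held 31.6% ± 1.41. By contrast, the 7892 genes between 1 and 10 TPM held 2.95% ± 0.434.

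The head of the ranking was occupied by lipoprotein, fatty acid binding and iron carrier transcripts. apoa1b, which encodes apolipoprotein A-I, the main protein of high-density lipoprotein, was first in all 6 libraries, with 137645, 159723, 130621, 126650.0, 124976 and 117146 TPM in replicates 1 to 6. apoa2, another high-density lipoprotein component, followed with 55968 TPM at the lowest, 61396 TPM at the median and 70051 TPM at the highest. fabp10a, the liver-type fatty acid binding protein that carries lipids and bile acids inside hepatocytes, had 56582, 88018, 65342, 24558, 39523 and 52144 TPM in replicates 1 to 6. Replicate 2 was highest and replicate 4 lowest for fabp10a, while apoa1b and apoa2 spanned a much narrower range. The order of apoa1b above apoa2 held in 6 of 6 libraries, and that of apoa2 above fabp10a in 5 of 6.

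apoc1, a small apolipoprotein that moves between lipoprotein particles, averaged 31082 ± 5551 TPM (SD, n = 6), and tfa, the iron carrier transferrin, averaged 26785 ± 2957 TPM (SD, n = 6). Between them lay mt-atp8, a mitochondrially encoded subunit of ATP synthase, at 29432 ± 6051 TPM (SD, n = 6). These neighbours were not separated by their spread: apoc1 exceeded mt-atp8 in 4 of 6 libraries and mt-atp8 exceeded tfa in 3 of 6. MT-CO1, MT-CO2 and MT-CO3, the 3 mitochondrially encoded subunits of cytochrome c oxidase, kept that order in all 6 libraries, with means of 21106, 19136 and 17645 TPM. The place of mt-atp8 above these 3 held in TPM alone, which divides by length. It took 0.0849% of estimated counts on average, against 2.78% for MT-CO1. MT-ATP6, another ATP synthase subunit, was at rank 10 with 12844 ± 2578 TPM (SD, n = 6). In all, 9 genes were in the first 10 of every library and 12 in that of any, while 80 genes were in the first 100 of every library and 119 in that of any.

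Ranks 11 to 20 mixed enzymes, plasma proteins and 1 gene without a known role. wu:fj16a03, which has only a clone name, averaged 10510.0 ± 1894 TPM. BHMT, which remethylates homocysteine with betaine, averaged 8655 ± 2446 TPM (SD, n = 6 each). BHMT lay between 6671 and 7877 TPM in replicates 1 to 4 and was higher in replicates 5 and 6, at 10907 TPM and 12484 TPM. The secreted fetuins fetub and ahsg1 had 4393 to 10190.0 TPM and 4083 to 5831 TPM, the elongation factor gene eef1a1l1 5128 to 7539 TPM and FGB, the fibrinogen beta chain, 4722 to 6333 TPM. From rank 13 to rank 21, every pair of neighbours changed places in some library: mt-nd4l, a subunit of complex I, exceeded ahsg1 in 2 of 6 libraries, and MT-ND1, another, exceeded the second apolipoprotein A-I gene apoa1a in 2 of 6.

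**Figure D1:**
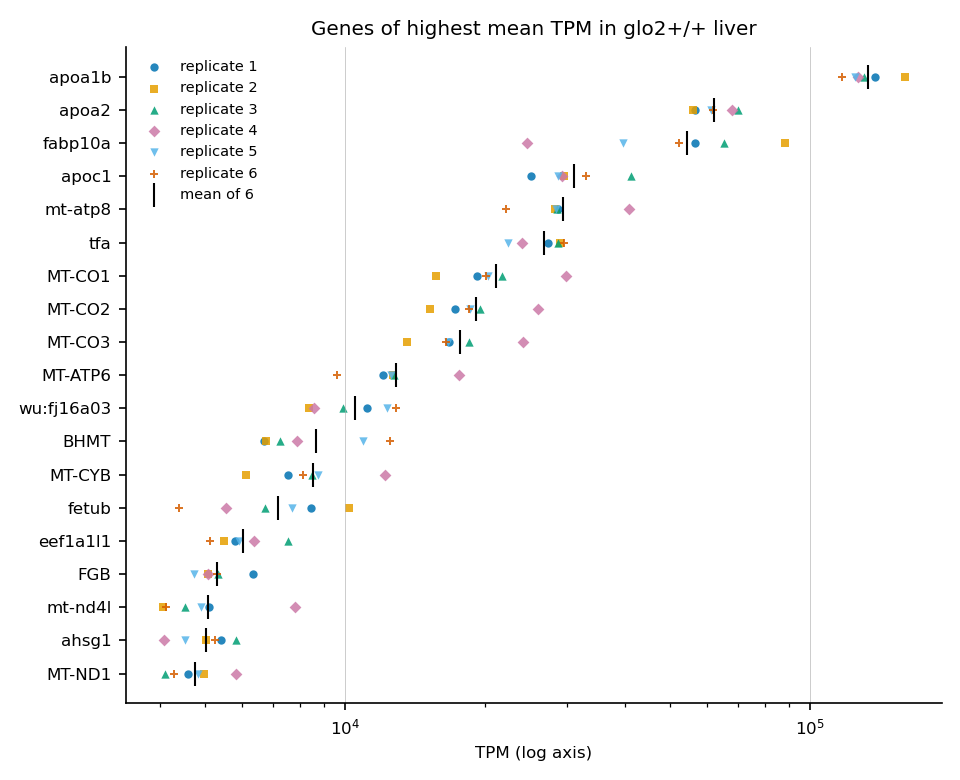
TPM (log axis) of 19 of the 20 genes of highest mean TPM; coloured symbols are the 6 glo2+/+ libraries and the vertical tick is their mean. apoa1b was first in every library, fabp10a ranged from 24558 TPM in replicate 4 to 88018 TPM in replicate 2, and the mitochondrially encoded genes among them were highest in replicate 4 in TPM (in TMM-scaled CPM 8 of 12 such genes were highest in replicate 3).

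The most abundant genes by TPM had short effective transcripts. Relative length, taken as counts over TPM and set to 1 at the median of the 11557 genes with a mean of at least 1 TPM (35.5% of all genes), had a median of 0.388 among the first 100, and 91 of them were shorter than the overall median. Among the 100 genes of highest mean count the median was 0.774, with 67 shorter, and the 2 sets shared 62 genes. TPM divides by length and read counts do not, so the share of the first 100 genes was 67.0% of TPM and 58.2% of counts.

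Secreted plasma proteins took a larger share of TPM than metabolism in all 6 libraries. The margin depended on the unit and on the mitochondrial genome. In TPM with the mitochondrially encoded genes counted, the order depended on the single gene apoa1b. Genes were sorted into 45 lists in 5 classes, with each gene counted once in its class and some genes standing in 2 lists. Counts of list members at a mean of 1 TPM or more are to be set beside 35.5% of all genes. The 150 genes of the secretory class took 34.7% ± 1.26 of TPM (SD, n = 6), from 33.3% to 36.1%, and the 629 genes of the metabolic class 29.1% ± 1.05, from 27.9% to 30.5%. As shares of estimated counts, the secretory class took 37.3% and the metabolic class 22.1% at the median library, and without the mitochondrially encoded genes they took 40.5% and 18.3% of TPM. Without apoa1b the secretory class took 24.5% of TPM at the median library. That is less than the 28.99% that the metabolic class took with apoa1b still counted in the total. Of the metabolic share, 13.2% ± 2.48 was mitochondrially encoded and 15.9% ± 2.05 was nuclear. The mitochondrially encoded genes took 7.73% of estimated counts on average. The general class of translation, folding and degradation genes took 15.2% ± 0.838, and the 31024 genes in no list 20.1% ± 1.88. Within the metabolic class the parts moved more than the sum. The mitochondrially encoded share of TPM reached 18.1% in replicate 4 against 11.3% to 13.1% in the other libraries. The nuclear metabolic share was at its lowest there, at 12.4%, and so was its most abundant gene, fabp10a. That gene had 24558 TPM in replicate 4 and 39523 to 88018 TPM in the others. The low nuclear share thus rested on fabp10a and does not describe the other nuclear metabolic genes.

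Within the secretory class, apolipoproteins took 23.8% ± 1.26 of TPM (SD, n = 6), with 17 of 21 genes at a mean of 1 TPM or more, and apoa1b alone made up 55.8% of that sum. Its copy apoa1a had 6204, 1116, 5976, 4335, 6175 and 4684 TPM in replicates 1 to 6, and so was low in replicate 2, where apoa1b was at its highest. Reads of similar copies may be divided unequally by the authors' quantification, and the part of this in the values was not tested. How similar apoa1a and apoa1b are was not measured. Plasma carriers and hormones took 6.54% ± 0.482, coagulation genes 2.04% ± 0.217, protease inhibitors 1.18% ± 0.194, complement 0.720% ± 0.161 and acute phase and antimicrobial genes 0.373% ± 0.0834 of TPM (SD, n = 6 each). The 3 fibrinogen chains, which assemble in equal numbers, had mean levels of 5302 TPM for FGB, 4503 TPM for FGG (gamma) and 4313 TPM for fga (alpha). hpxa, the haem carrier hemopexin, had 2419.8 TPM at the lowest, 3555 TPM at the median and 5546 TPM at the highest. serpina1, the antitrypsin inhibitor of neutrophil elastase, had 2475 TPM at the lowest, 3392 TPM at the median and 4357 TPM at the highest. c3a.1, the central complement component C3, had 1284 TPM at the lowest, 1782 TPM at the median and 2334 TPM at the highest. crp3, a pentraxin of the C-reactive protein family, made up 95.3% of its list.

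Among metabolic lists the fatty acid binding and lipid droplet genes came first after the mitochondrial genome, at 5.73% ± 2.17 of TPM (SD, n = 6), and 94.9% of that sum was fabp10a. As a share of estimated counts this list was lower, at 1.58%, against 4.19% for amino acid and one-carbon metabolism and 2.54% for glycolysis and fructose use, so its place holds in TPM alone. Amino acid and one-carbon metabolism took 2.92% ± 0.353, glycolysis and fructose use 2.05% ± 0.223, and nuclear genes of the respiratory chain 1.96% ± 0.163. hpda, the tyrosine breakdown enzyme 4-hydroxyphenylpyruvate dioxygenase, averaged 4524 ± 677 TPM, and AHCY, which clears S-adenosylhomocysteine, 2246 ± 246 TPM (SD, n = 6 each). Respiratory chain genes were many and each modest: 86 of 91 were at 1 TPM or more and ATP5F1B, the catalytic subunit of ATP synthase, averaged 715 ± 82.5 TPM.

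Detoxification was led by few genes. Conjugation and glutathione genes took 0.628% ± 0.101 of TPM and cytochrome P450 genes 0.272% ± 0.0504 (SD, n = 6 each). gpx4a, which reduces lipid hydroperoxides, averaged 2746 ± 834 TPM and made up 43.7% of the conjugation and glutathione list. CAT, the peroxisomal catalase, averaged 1160.2 ± 279.8 TPM. cyp2k22, of the cytochrome P450 family 2, averaged 788 ± 138 TPM, CYP1A1, which the aryl hydrocarbon receptor induces, 325 ± 84.3 TPM and cyp3a65, of family 3, 143 ± 59.9 TPM (SD, n = 6 each). HAGH, the gene for glyoxalase 2 that the glo2-/- fish lack, averaged 61.0 ± 9.25 TPM, and GLO1, glyoxalase 1, 23.6 ± 4.16 TPM (SD, n = 6 each). HAGH was the higher of these in all 6 libraries, with 46.3 to 69.8 TPM against 17.4 to 28.8 TPM for GLO1.

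Bile salt genes took 0.0696% ± 0.00868 of TPM (SD, n = 6). CYP8B1 (ENSDARG00000053068), the sterol 12-hydroxylase of bile acid synthesis in mammals, had 49.2 TPM at the lowest, 122 TPM at the median and 138 TPM at the highest. ABCB11, the bile salt export pump, had 35.0 TPM at the lowest, 65.3 TPM at the median and 95.8 TPM at the highest.

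Ribosomal protein genes were the largest general list, at 12.13% ± 0.781 of TPM (SD, n = 6) from 87 of 88 genes, and no single one led: RPL35 made up 3.88% of the sum. Cell cycle genes were near the other end, at 0.00234% of TPM, with 5 of 30 genes at 1 TPM or more. PCNA, the replication clamp, averaged 5.06 ± 1.53 TPM (SD, n = 6). Hepatocyte transcription factors took 0.109% ± 0.0231, with 41 of 44 genes at 1 TPM or more. PROX1, a homeobox factor of liver development, averaged 76.8 ± 26.3 TPM (SD, n = 6).

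**Figure D2:**
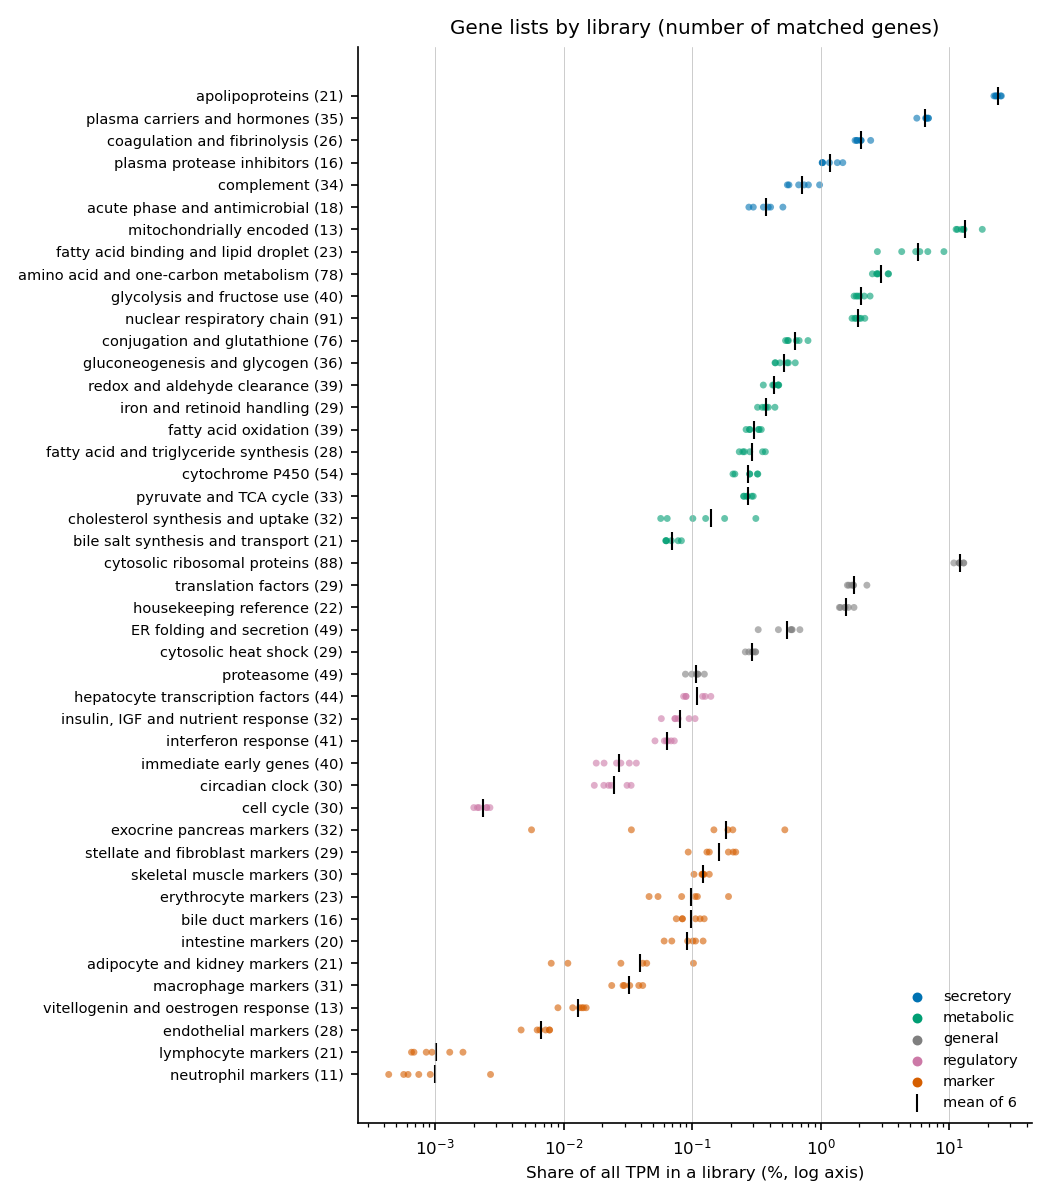
Share of all TPM (%, log axis) taken by each of the 45 gene lists in each of the 6 glo2+/+ libraries (points) with their mean (tick), coloured by class and sorted by mean within a class. Apolipoproteins led at 22.3% to 25.5%, and the exocrine pancreas markers were the most scattered, at 0.00563% to 0.526%.

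Genes of other tissues and cell types were mostly low, with the exocrine pancreas varying most. The pancreas list summed to 0.148%, 0.190%, 0.207%, 0.00563%, 0.0337% and 0.526% of TPM in replicates 1 to 6, a 93.6-fold range, with 27 of 32 genes at 1 TPM or more. The trypsin gene prss1 had 192, 282, 263, 6.09, 51.3 and 804 TPM in replicates 1 to 6. CELA1 (ENSDARG00000017314), a pancreatic elastase, had 250.3, 390.0, 417, 10.6, 57.9 and 1406 TPM. Replicate 6 was highest and replicate 4 lowest for both, with replicate 5 next to the lowest, and the same 2 extremes held for 16 of 17 pancreas genes each at a mean of at least 10 CPM (counts scaled to library size with TMM factors). In whole tissue, more or fewer cells of a type and more or less RNA per cell cannot be told apart.

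Blood cell and vessel markers took small shares of TPM, with the erythrocyte genes the largest of them. Erythrocyte genes summed to 0.0462% to 0.192% of TPM, a 4.2-fold range. The globin genes HBE1 (ENSDARG00000089087) and hbaa1 were highest in replicate 2, at 883 TPM and 362 TPM, and lowest in replicate 1, at 165 TPM and 138 TPM. Macrophage markers summed to 0.0237% to 0.0413%, and cd74a among them, the class II invariant chain, had 55.95 to 110.1 TPM. Endothelial markers summed to 0.00467% to 0.00778%. FLI1, whose promoter drives the transgene, had 3.94 to 10.7 TPM and kdrl, a vascular endothelial growth factor receptor, 8.74 to 14.3 TPM, and both were present in every library. Lymphocyte markers summed to 0.000655% to 0.00165%, with cd79a and cd79b at 0.

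Neutrophil markers were highest in replicate 1, as were 2 markers from the adipocyte and kidney list. Neutrophil markers summed to 0.00270% of TPM there and 0.000436% to 0.000917% in the others. On average 4 of 11 genes were at 1 TPM or more (36.4%, against 35.5% of all genes). LECT2 (ENSDARG00000090889) led this list, at 39.4% of its mean sum. lyz, the lysozyme of neutrophils and macrophages, had 9.02, 1.25, 0.381, 0.406, 0.433 and 1.21 TPM in replicates 1 to 6. STAR, which brings cholesterol into mitochondria for steroid synthesis, had 13.5, 0.202, 0.942, 0.224, 0 and 0.231 TPM and CDH17, a cadherin of kidney tubules and gut, 15.4, 2.58, 2.204, 2.09, 6.52 and 2.89 TPM in the same order. lyz, STAR and CDH17 were all highest in replicate 1 and none of them exceeded 15.4 TPM. The adipocyte and kidney list as a whole summed to 0.00801% to 0.102% and was highest in replicate 5, against 0.0413% in replicate 1, with 90.3% of it PCK1, which hepatocytes also express.

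Some lists that bear another tissue's name rested on 1 gene that liver expresses too. ENO3, an enolase, made up 99.1% of the skeletal muscle list (1197 ± 109.6 TPM), apoa4b.1, an apolipoprotein A-IV gene, 93.8% of the intestine list (862 ± 224 TPM) and FN1 (ENSDARG00000006526), plasma fibronectin, 93.2% of the stellate and fibroblast list (1519 ± 499 TPM; SD, n = 6 each). Of the muscle list, 3 of 30 genes were at 1 TPM or more. krt8, a keratin of simple epithelia, led the bile duct list at 399.6 ± 84.5 TPM (SD, n = 6).

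Vitellogenin genes, which the livers of egg-laying female fish express at very high levels, were low in all 6 libraries. vtg1 had 0.0944 to 2.08 TPM. vtg5 was the highest of them at 36.8 to 86.4 TPM, and the 13 genes of the vitellogenin and oestrogen response list summed to 0.00903% to 0.0150% of TPM. The labels give no sex, and none was assigned.

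Most genes varied little between the 6 libraries and a small group varied a great deal. Spread is given as the SD over libraries of log2 CPM (TMM scaling, prior count 2) for the 5476 genes with a mean of at least 10 CPM, where 1 unit is a doubling. The median SD was 0.29, the range from the 5th to the 95th percentile was 0.13 to 0.92, and the SD that counting alone gives was 0.07 at the median. The common biological coefficient of variation, the spread beyond counting error as a fraction of the mean, was 0.307. An SD over 1 was found for 230 genes (4.20%) and an SD under 0.1 for 120 genes (2.19%). The second count rests on the number of libraries: it was 155 to 263 with 1 library left out, highest without replicate 2. The 230 genes held 50.3% of the summed variance, and the first 50 of them 26.4%. Of the 230, 87 stayed over 1 whichever library was left out.

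The median spread changed little with level above 10 CPM. The median SD was 0.48 for genes at 1 to 3 CPM, where counting error is larger. It was 0.29 at 10 to 30 CPM, 0.30 at 300 to 1000 CPM and 0.32 for the 40 genes above 3000 CPM. The share of genes with an SD over 1 moved more. It was 3.69% at 10 to 30 CPM, 6.17% at 100 to 300 CPM and 0% above 3000 CPM. Secreted protein genes had a median SD of 0.38, with 13 of 115 over 1 (11.3%), metabolic genes 0.30, with 35 of 442 (7.92%), regulatory genes 0.49, with 11 of 82 (13.4%), general genes 0.29, with 6 of 222 (2.70%), and genes in no list 0.29, with 143 of 4560 (3.14%). The marker class stood at 0.70, with 22 of 55 over 1 (40.0%), of which 17 were the pancreas genes. The median SD of the pancreas genes was 2.49, and 1.46 without replicate 4.

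**Figure D3:**
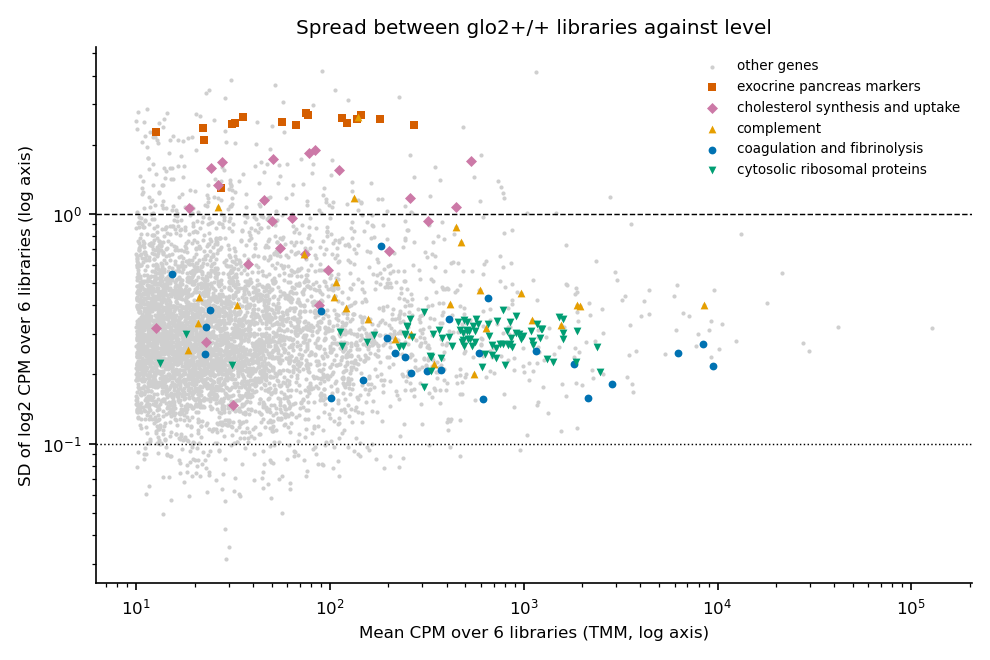
SD of log2 CPM over the 6 glo2+/+ libraries against mean CPM (TMM), both on log axes, for the 5476 genes at a mean of at least 10 CPM; the dashed line is an SD of 1 and the dotted line an SD of 0.1. All 17 pancreas markers and 12 of 24 cholesterol genes lie above the dashed line, and no coagulation or ribosomal protein gene does.

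Lists differed in spread. Among coagulation genes 0 of 25 had an SD over 1 and the median SD was 0.25; among ribosomal protein genes 0 of 86 and 0.29; among nuclear respiratory chain genes 1 of 84 and 0.26; among housekeeping genes 0 of 16 and 0.23. By contrast, cholesterol synthesis and uptake had 12 of 24 over 1 and a median of 1.01, insulin, IGF and nutrient response 5 of 16 and 0.72, and heat shock 3 of 17 and 0.56. The acute phase list, with 5 genes at this level, had 3 over 1 and a median of 1.17. These are set against 4.20% and 0.29 over all 5476 genes.

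Cholesterol synthesis genes varied together, with replicate 6 at the top. Of 24 genes, 19 were highest in replicate 6 (79.2%, against 11.9% of all genes), 13 were lowest in replicate 3 (54.2%, against 20.1%) and 8 in replicate 4 (33.3%, against 18.6%). HMGCS1, which makes the HMG-CoA that enters sterol synthesis, had 108, 235, 17.7, 56.03, 302 and 687 TPM in replicates 1 to 6. The SREBP pathway is known to control these genes as a set according to the sterol content of the cell.

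Later steps had the same high library. MVD, which makes isopentenyl diphosphate, ranged over 3.98 to 172 TPM, CYP51A1, which demethylates lanosterol, over 57.2 to 475 TPM and MSMO1, which removes methyl groups from sterols, over 73.9 to 415 TPM. All 3 were highest in replicate 6, while MVD was lowest in replicate 3 and CYP51A1 and MSMO1 in replicate 4. The summed share of the list was 0.313% of TPM in replicate 6 and 0.0640% and 0.0570% in replicates 3 and 4, a 5.5-fold range. Replicate 6 also had the most exocrine pancreas RNA and replicate 3 the second most, and the part of that in the sterol values was not tested.

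Other lists peaked in other libraries. All 37 proteasome genes at this level were highest in replicate 2 (100%, against 21.5% of all genes), as were 70 of 84 nuclear respiratory chain genes (83.3%). Of 86 ribosomal protein genes, 83 were highest in replicate 3 (96.5%, against 21.0% of all genes) and 80 lowest in replicate 4 (93.0%, against 18.6%). Of 27 complement genes, 19 were highest in replicate 1 (70.4%, against 15.5%), and so were 8 of 12 plasma protease inhibitors and 10 of 18 circadian clock genes. Of 17 heat shock genes, 9 were lowest in replicate 1 (52.9%, against 20.2%). Of 46 genes of endoplasmic reticulum folding and secretion, 19 were highest in replicate 5 (41.3%, against 13.6%) and 19 in replicate 2 (in TPM 23 and 7). Of 11 stellate and fibroblast markers, 7 were highest in replicate 1 (63.6%, against 15.5%) and 5 lowest in replicate 5 (45.5%, against 9.53%). In TPM, 6 of these markers were highest in replicate 1 and 7 lowest in replicate 3 (63.6%, against 48.5% of all genes). Genes of one list are not independent of each other.

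These shifts were small for most lists. Relative to its mean over the 6 libraries, the proteasome list stood 0.42 log2 units higher in replicate 2, the respiratory chain list 0.40 in replicate 2, the ribosomal protein list 0.41 in replicate 3 and -0.37 in replicate 4, and the complement list 0.54 in replicate 1. The cholesterol list stood at 1.21 in replicate 6 and -1.07 in replicate 3.

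Scaling moved part of this pattern, and it moved the counts over all genes too. Of all 5476 genes in TPM, 892, 510, 265, 1793, 1177 and 839 were highest in replicates 1 to 6. Those in replicate 4 were 32.7% of all genes. Lowest in TPM were 2656 genes in replicate 3 (48.5%) and 285 in replicate 4. In TPM, 26 of 37 proteasome genes and 46 of 84 respiratory chain genes were highest in replicate 2. Of 86 ribosomal protein genes, 38 were highest in replicate 3, 35 were highest in replicate 6 and 59 were lowest in replicate 4. The mean of the ribosomal protein list ranged over 0.24 log2 units in TPM, against 0.78 in TMM-scaled CPM. In TPM, 21 of 27 complement and 19 of 24 cholesterol genes kept the libraries named above as their highest. For the mitochondrially encoded genes the choice turned the order: 8 of 12 were highest in replicate 3 in TMM-scaled CPM, and 12 of 12 in replicate 4 in TPM. Over all 5476 genes, the median deviation from a gene's mean ranged from -0.03 to 0.03 log2 units between libraries in TMM-scaled CPM and from -0.28 to 0.19 in TPM.

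**Figure D4:**
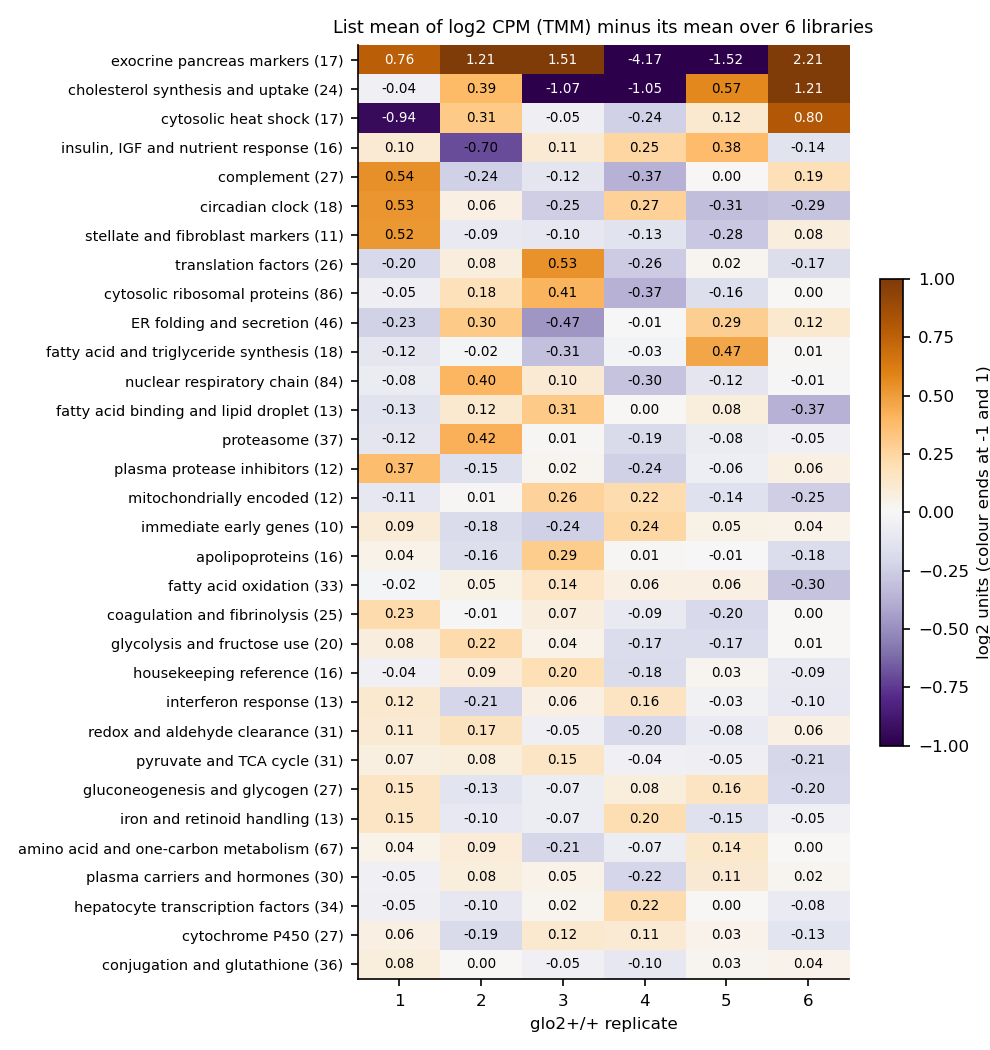
Mean log2 CPM (TMM) of each list with at least 10 genes at a mean of 10 CPM, minus its mean over the 6 glo2+/+ libraries, with the number of genes in brackets; lists are sorted by range. The exocrine pancreas and cholesterol lists ranged most, followed by heat shock genes, at -0.94 in replicate 1 and 0.80 in replicate 6.

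A pair of enzymes of glucose release varied widely in a list that as a whole did not. G6PC1 (ENSDARG00000013721), a catalytic subunit of glucose-6-phosphatase, which releases glucose into blood, had 689.6, 35.3, 462, 223, 334 and 41.6 TPM in replicates 1 to 6. It was lowest in replicates 2 and 6 and highest in replicate 1. PCK1, the cytosolic enzyme that starts gluconeogenesis from oxaloacetate, had 343, 86.3, 56.9, 405, 986 and 244 TPM in the same order, with its highest value in replicate 5 and its lowest in replicate 3.

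Some other enzymes of glucose metabolism varied less, though not all did. In the glycolysis and fructose use list 1 of 20 genes had an SD over 1, and that SD was 2.40. The SD of log2 CPM was 1.81 for G6PC1 and 1.31 for PCK1, but 0.16 for fbp1b, the gluconeogenic fructose bisphosphatase, and 0.63 for PKLR, the liver pyruvate kinase. In the gluconeogenesis and glycogen list 3 of 27 genes had an SD over 1 (11.11%, against 4.20% of all genes), G6PC1 and PCK1 among them, and the median SD was 0.28, against 0.29 over all genes. The labels do not give when the fish last fed.

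Lipid and hormone response genes showed a similar division. thrsp, which promotes fatty acid synthesis in mammals, had 326, 143, 27, 15.01, 248 and 357 TPM in replicates 1 to 6, while ACACA, which makes malonyl-CoA for that synthesis, had 31.5 to 193 TPM. angptl8, a secreted regulator of lipoprotein lipase that feeding raises in mammals, had 8.43, 171, 3.08, 24.4, 72.8 and 158 TPM. It was highest in replicates 2 and 6 and lowest in replicate 3. CISH, a feedback inhibitor of growth hormone and cytokine signals, had 1.95, 1.00, 29.2, 32.6, 22.9 and 11.4 TPM and IGF1, a hormone that growth hormone induces in liver, 32.5, 57.0, 89.2, 106, 94.7 and 67.6 TPM. Both were at their 2 lowest in replicates 1 and 2. ACADM, a mitochondrial fatty acid oxidation enzyme, had an SD of 0.13 and a level of 263 to 367 TPM.

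Some regulators varied widely, though few of each list did: 2 of 18 circadian clock genes had an SD over 1 (11.11%) and 1 of 34 hepatocyte transcription factors (2.94%), against 4.20% of all genes. The clock repressors nr1d2a and NR1D1 (Rev-erb family) were highest in replicates 1 and 4, with 25.9 TPM and 17.9 TPM for nr1d2a against 1.97 to 3.49 TPM elsewhere, and 27.8 TPM and 35.6 TPM for NR1D1 against 4.398 to 15.6 TPM. The labels give no time of sampling. MYC (ENSDARG00000007241), a growth regulator, had 33.7, 1.56, 2.22, 42.1, 50.5 and 4.55 TPM in replicates 1 to 6. CEBPA, a hepatocyte factor, had 13.3, 45.5, 12.9, 85.8, 127 and 111 TPM, and JUNB (ENSDARG00000104773), an immediate early gene, 159.6 TPM in replicate 1 and 11.5 to 35.3 TPM in the others.

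Of 46 genes of endoplasmic reticulum folding and secretion 2 had an SD over 1, with a median of 0.35, and single folding genes followed different libraries. HSPA5, the chaperone BiP, had 171, 438, 147, 765, 965 and 639 TPM in replicates 1 to 6 and PDIA4, a disulfide isomerase, 27.4, 62.1, 14.8, 101, 128 and 75.4 TPM. Both were lowest in replicates 1 and 3 and highest in replicate 5. XBP1, a factor that drives such genes, was highest in replicate 2, at 499 TPM, and 191 to 299.7 TPM in the others. hsp70.3, an inducible cytosolic chaperone, had 0.201, 14.99, 4.60, 1.91, 10.6 and 136 TPM, with replicate 6 far above the rest. HSP90AB1, a constitutively expressed cytosolic chaperone, had 1300.2, 1150.4, 1599, 1128, 1187 and 808 TPM and was lowest in replicate 6.

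Some defence genes had their highest or lowest value in replicate 6. apcs, a pentraxin of the serum amyloid P type, had 361 TPM in replicate 6 and 2.23 to 25.2 TPM in the others. hamp, the iron hormone hepcidin, had 12.5, 8.72, 34.01, 5.61, 58.3 and 95.2 TPM in replicates 1 to 6, also highest in replicate 6. mhc1uba, a class I histocompatibility heavy chain, had 9.54 TPM in replicate 6 and 115 to 225 TPM in the others.

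Some genes were near 0 in certain libraries and well expressed in the rest. A gap of at least 4 log2 units between neighbouring libraries (on CPM plus 0.1) was found for 36 of 6661 genes that reached 10 CPM in some library; 15 were low in 1 library, 4 high in 1 library and 17 low in 2 to 4. cfhl2, a complement factor H-like gene, had 1.77 CPM in replicate 2 and 125 to 202 CPM in the others. It had close to no signal in that library, and without it the SD of log2 CPM was 0.28, against 2.64 with all 6.

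sat2a.2, of the spermidine acetyltransferase family, had 0.606 CPM in replicate 1 and at least 102 CPM in the others. zgc:171534, which has a clone name and no role given here, went the other way, with 309 CPM in replicate 4 and at most 0.879 CPM elsewhere. Without those libraries the SD of log2 CPM was 0.43 for sat2a.2 and 0.66 for zgc:171534, against 3.14 and 3.65 with all 6. The 2 genes with the largest SD of all were also clone-named: si:dkeyp-1h4.8 had 166, 63.7, 0.385, 98.1, 0.359 and 217 CPM in replicates 1 to 6 and si:dkey-14d8.6 1319.5, 3.52, 12.2, 1110.2, 1532 and 2930.3 CPM. Of the 36 genes, 16 had a clone name or none, and the 36 did not follow 1 division of the libraries: 6 were low in replicate 2 alone, 5 in replicate 6 alone and 3 in replicate 1 alone, with the others spread over 16 further patterns.

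Further genes with an SD among the 20 largest include 2 enzymes and a troponin. cyp2x10.1, of cytochrome P450 family 2, had 44.2, 91.6, 46.6, 1.49, 0.574 and 0.0517 CPM in replicates 1 to 6. acot15, an acyl-CoA thioesterase, had 56.4, 21.6, 0.257, 0.249, 21.6 and 37.1 CPM, and tnni4b.1, a troponin I gene, 149, 1.01, 6.22, 1.25, 0.205 and 15.6 CPM. tdo2b, the first enzyme of tryptophan breakdown, had the largest SD of the 67 amino acid genes at this level, with 146, 6.48, 73.0, 20.7, 16.9 and 11.2 TPM. Pancreas enzymes stood in the same range: the carboxypeptidases CPB1 and CPA1 (ENSDARG00000021339) had SDs of log2 CPM of 2.74 and 2.69, and ctrb.1, chymotrypsinogen, 2.60.

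**Figure D5:**
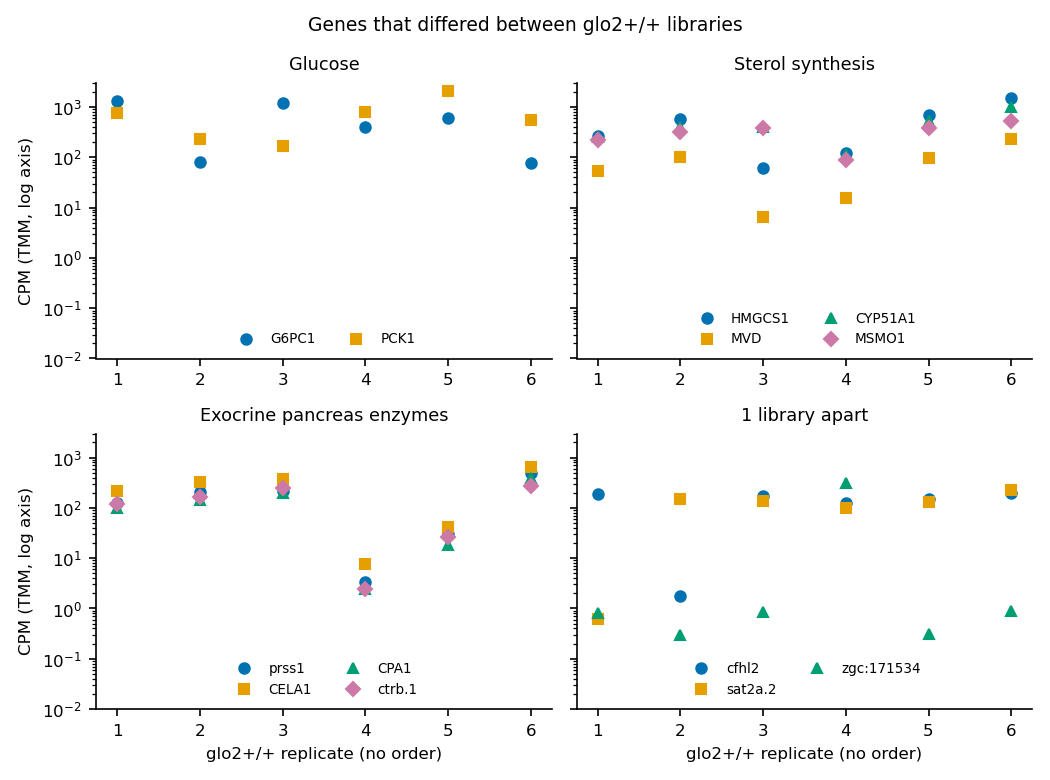
CPM (TMM, log axis) of selected variable genes in the 6 glo2+/+ libraries, whose order on the axis has no meaning: glucose release enzymes, sterol enzymes, pancreas enzymes, and genes apart in 1 library. G6PC1 is lowest in replicates 2 and 6, pancreas enzymes are lowest in replicate 4 and highest in replicate 6, and cfhl2 and sat2a.2 each drop in 1 library.

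The steadiest genes were lysosomal, RNA decay and protein disposal genes at modest levels, among others. CTSA, a lysosomal carboxypeptidase that protects other lysosomal enzymes, had the smallest SD of log2 CPM, 0.03, with 29.2, 29.0, 28.9, 30.04, 28.6 and 28.1 CPM in replicates 1 to 6. MFSD8, a lysosomal membrane transporter, had an SD of 0.04 (29.5 to 31.2 CPM) and JAK2, the kinase of cytokine and growth hormone receptors, 0.04 (27.7 to 30.2 CPM). UPF1, of nonsense-mediated RNA decay, EDEM3, of endoplasmic reticulum protein disposal, VAPB, of membrane contact sites, and PCBP2, an RNA-binding protein, had SDs of 0.05 to 0.06. For CTSA, MFSD8 and JAK2 the SD was below the 0.06 that counting alone gives, and these are the smallest of 5476 values. This steadiness held in TMM-scaled CPM: on log2(TPM + 1) the SD was 0.202 for CTSA, 0.211 for MFSD8 and 0.202 for JAK2. HAGH lay near this group in CPM, with an SD of 0.08 and 88.6 to 103 CPM, though its TPM ranged over 46.3 to 69.8 TPM.

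No single axis set the libraries apart. The 5 principal components of log2 CPM over the 5476 genes took 29.1%, 25.5%, 20.4%, 15.5% and 9.65% of the variance. On the first, replicates 2 and 6 (-25.8 and -22.8) stood at one end and replicate 4 (27.2) at the other. Genes with the largest loadings at the end of replicates 2 and 6 included acot15 and the pancreas enzymes ela2l and prss1. At the other end they included zgc:171534 and si:ch211-133n4.9. Pancreas RNA did not follow this axis in every library: replicate 3, at 10.7, had 95.5 CPM of ela2l, against 76.5 CPM in replicate 2. The first component took 29.2% without the pancreas markers. Each library contributed 11.3% (replicate 5) to 18.8% (replicate 3) of the summed squared deviations, and pancreas markers, 0.310% of the genes, held 7.05% of them.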

How the data were processed

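RNA-seq of whole adult zebrafish liver was used from the 6 glo2+/+ libraries. Per the labels' protocols, RNA was extracted with TRIzol and sequenced by BGISeq-500 methods. The authors deposited, for each library, estimated counts per gene and TPM per gene. Per the submitters' processing notes, Trim Galore 0.6.4, kallisto 0.4.6 and the GRCz11 build were used, with no settings given in the sources used here. TPM was taken as deposited. Estimated counts were rounded for edgeR 4.0.16 and DESeq2 1.42.0 (R 4.3.3), which gave the TMM and size factors. Shares and spreads were computed with Python 3.11.15, pandas 2.3.3 and numpy 2.4.6, and figures drawn with matplotlib 3.10.9. Spread is the SD of log2 CPM (TMM, prior count 2) at a mean of at least 10 CPM, and this step was tested on simulated data.

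Gene names matched 29201 of 32520 identifiers, and 54 of 1182 list entries had no match. Named genes were the most abundant, most variable and least variable genes and the leading members of the lists. The genes and lists were chosen with earlier results of these data known, and the counts of highest and lowest libraries, the gap rule and further genes in the text were chosen after their values were seen. Near-identical copies are uncertain. Alternatives were other scalings, floors on level, pseudocounts, and each library left out. Total counts were 17837733 to 18465485, so intervals of single levels reflect the spread between libraries more than counting error. Some genes are not reported here. No promoter or protein sequences were used.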

Additional observations from a re-analysis of the deposited data

Results flagged for a closer look

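In each group of 6 values the gap between an extreme library and its nearest neighbour was divided by the whole range, and the values past Dixon's limit are given here. Chance passes about 1 in 20 groups, and 15 of 167 groups passed, 9 of them single genes out of 105. The genes were chosen after their values were seen, some of them for having 1 library apart, and 1 quantity is counted in 2 forms, so the number passing is a description and no test. They involved replicate 1 in 5 cases, replicates 3 and 4 in 4 each, replicates 2 and 6 in 1 each and replicate 5 in 0.

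Single genes were taken in log2 CPM (TMM scaling). Among them, replicate 1 was the high library for HAGH (0.706) and lyz (0.652), and the low one for sat2a.2 (0.861). Replicate 3 was high for apoa2 (0.672) and HSP90AB1 (0.705) and low for CYP8B1 (0.698). In TPM, apoa2 had 70051 in replicate 3 and 67782 in replicate 4, so its gap depended on the scaling. Replicate 6 was low for mhc1uba (0.706), replicate 4 was high for zgc:171534 (0.866) and replicate 2 was low for cfhl2 (0.897).

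Among sums of TPM, replicate 1 was high for coagulation and fibrinolysis (0.641) and neutrophil markers (0.787), and replicate 3 for translation factors (0.72). Replicate 4 was low for plasma carriers and hormones (0.737) and high for the mitochondrially encoded genes, both as summed TPM (0.745) and as a percentage of TPM (0.745), which are the same quantity on another scale.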

How the results depend on the processing

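Of the summary values under each alternative, 74 stayed within their limit and 28 moved; of values for single genes and lists, 586 stayed and 62 moved. The limit was 1.5 times for counts of genes and, for other values, the SD over libraries or a jackknife error from leaving out each library. Shares of TPM depended on the unit. As shares of estimated counts, the first 100 genes held 58.21% and the first 10 29.65% (66.97% and 40.36% of TPM), secretory genes 37.32% (34.55% of TPM at the median) and metabolic genes 22.07% (28.99%). Without mitochondrially encoded genes these were 63.98% for the first 100, 40.49% for secretory and 18.31% for metabolic genes, and without apoa1b secretory genes held 24.48%. Genes detected in all libraries numbered 14009 at 5 estimated counts, against 9152 at 1 TPM. Counts of variable genes followed the floor on level: 837 at a mean of 1 CPM, 84 at 50 CPM and 1763 with no floor, against 230. Stable genes numbered 43 at 50 CPM, 305 with no floor, 73 on log2(TPM + 0.1) and 245 after subtracting counting variance, against 120, and 155 to 263 with 1 library left out. The common biological coefficient of variation was 0.3945 with no filter and 0.3226 at a mean of 10 CPM, against 0.3075. The first principal component held 35.18% on log2(TPM + 1) and 32.66% to 37.37% with 1 library left out, against 29.05%; fewer libraries leave fewer components. Depth limits the genes under about 3 CPM, where counting error is a large part of the spread. No paired analysis was possible because 1 group was used and nothing was compared between groups. A planned comparison of promoter and protein features was not run, for want of sequence tables.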
